A study of Rattus rattus with 8 samples.

Results

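The genes described here serve protein folding in the endoplasmic reticulum (ER) and the unfolded protein response. They were chosen by symbol as 42 genes, of which 41 had 1 row each among the 11762 genes listed, and Derl3 had none and was not analysed here. By role they are 5 stress sensors (counting the effector Xbp1), 14 chaperones and helpers, 13 isomerases and oxidases, and 9 genes of ER-associated degradation. All 41 passed the filter of at least 1 FPKM (fragments per kilobase of gene length, scaled to the size of the library) in at least 4 libraries.

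The libraries are from epithelium of the proximal colon of 2 inbred rat strains, 4 from WKY (Wistar-Kyoto, normotensive) and 4 from SHR (spontaneously hypertensive). They test which genes differ between the strains. The labels give no age, sex or treatment, and name the species as Rattus rattus, whereas the gene identifiers are those that Ensembl gives to the brown rat. The tissue was shaken off after EDTA and DTT, and no label says whether a library is 1 animal, so the spread behind each p-value may be technical.

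Proteins bound for the cell surface, the lumen or the membrane fold in the ER, where chaperones hold them, isomerases join their cysteines and set their prolines, and lectins follow their sugars. Proteins that do not fold are drawn back to the cytosol and degraded. When unfolded protein builds up, membrane sensors slow translation and raise the genes of folding and degradation, and goblet cells, which make mucin in bulk, lean on this machinery heavily.

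Epithelial genes were abundant in both strains: Epcam was at a mean of 1616 ± 46.6 FPKM in WKY against 1585 ± 83.8 FPKM in SHR (SD, n = 4 each). Of 13 stromal, muscle and vessel markers 3 had a row, and these summed to between 2.16 and 4.79 FPKM per library. Markers of T and natural killer cells, of which 10 of 15 had a row and 5 of 8 tested were lower in SHR, summed to between 38.0 and 136.7 FPKM in WKY and between 12.4 and 23.3 FPKM in SHR, with WKY replicate 3 highest and SHR replicate 4 lowest. Of 7 tested myeloid markers 0 were lower and 1, Cd14, was higher (14.3%), while 5 had a negative log2 fold change and the median was -0.53. Their sum, between 101.1 and 137.7 FPKM in WKY and between 139.8 and 164.4 FPKM in SHR, was mostly Cd14, which ran from 84.8 to 90.3 FPKM in WKY and from 127.1 to 136.5 FPKM in SHR. Of 12 genes induced by tissue dissociation 0 were called, and their median was highest in WKY replicates 1 and 2 (0.77 and 0.50 on the log2 scale, relative to each gene's mean). No row was found for 15 plasma and B cell markers, and these cells were not analysed here. Of 10 epithelial markers 1 was lower in SHR (10%, near the 7.48% of all tested genes). The mitochondrial genome, with 13 rows, took 21.7% to 32.1% of all FPKM in WKY and 25.1% to 33.2% in SHR. Of the 12 of these rows on the list of mitochondrial genes 0 were called, and the remaining row was not followed here.

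In SHR, 7 of the 41 genes were lower and 0 were higher than in WKY at a limma adjusted p under 0.05. Over all tested genes 7.48% were lower and 3.4% higher at that threshold, against 17.1% lower among the members. The 7 are Eif2ak3, Sdf2l1, Pdia5, Pdia6, Pdia3, Ppib and Selenos, and they come from every role. For each of them all SHR values lay below all WKY values, as they did for 11 of the 41 members and for 10.8% of all tested genes. No member had all SHR values above all WKY values, as 5.28% of all genes had. The log2 fold change, SHR over WKY, was negative for 35 of 41 members with a median of -0.26, and negative for 60.9% of all tested genes with a median of -0.07. The medians by role were -0.40 for sensors, -0.28 for chaperones, -0.27 for isomerases and oxidases and -0.0034 for degradation. At an unadjusted limma p under 0.05, 18 members were lower and 0 higher, against 18.4% and 9.01% of all tested genes. By the q-values of the authors' deposited table, under 0.05, there were 8 lower members and 0 higher ones, against 9.59% and 5.74% of its genes. In bulk samples, fewer cells of a type and less RNA per cell cannot be told apart.

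The direction depended in part on scaling. When each library was scaled to its total without the mitochondrial genes, the median of all genes was 0.08, a shift of over 0.1, and that of the members was -0.10, with 26 of 41 negative (31 after quantile normalization and 33 after centring on the median). The shares of all genes called lower and higher were then 4.17% and 6.49%, with 5 members lower. They were 5.82% and 5.8% after quantile normalization, again with 5 members lower, and 6.45% and 4.89% after centring each library on its median, with 6 members lower. The members' median lay below that of all genes by 0.19 as deposited, 0.18 with that scaling and 0.16 after quantile normalization. Of the 7 calls, 5 held in all 17 alternatives: Eif2ak3, Sdf2l1, Pdia5, Pdia6 and Selenos. The calls of Pdia3 and Ppib ended without mitochondrial genes (adjusted p = 0.0991 and 0.124) and after quantile normalization (0.0795 and 0.0988), and that of Ppib also after centring (0.0637). Among the 8 limma fits that left out 1 library, both calls held only in those without WKY replicate 3 or SHR replicate 4.

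**Figure D1:**
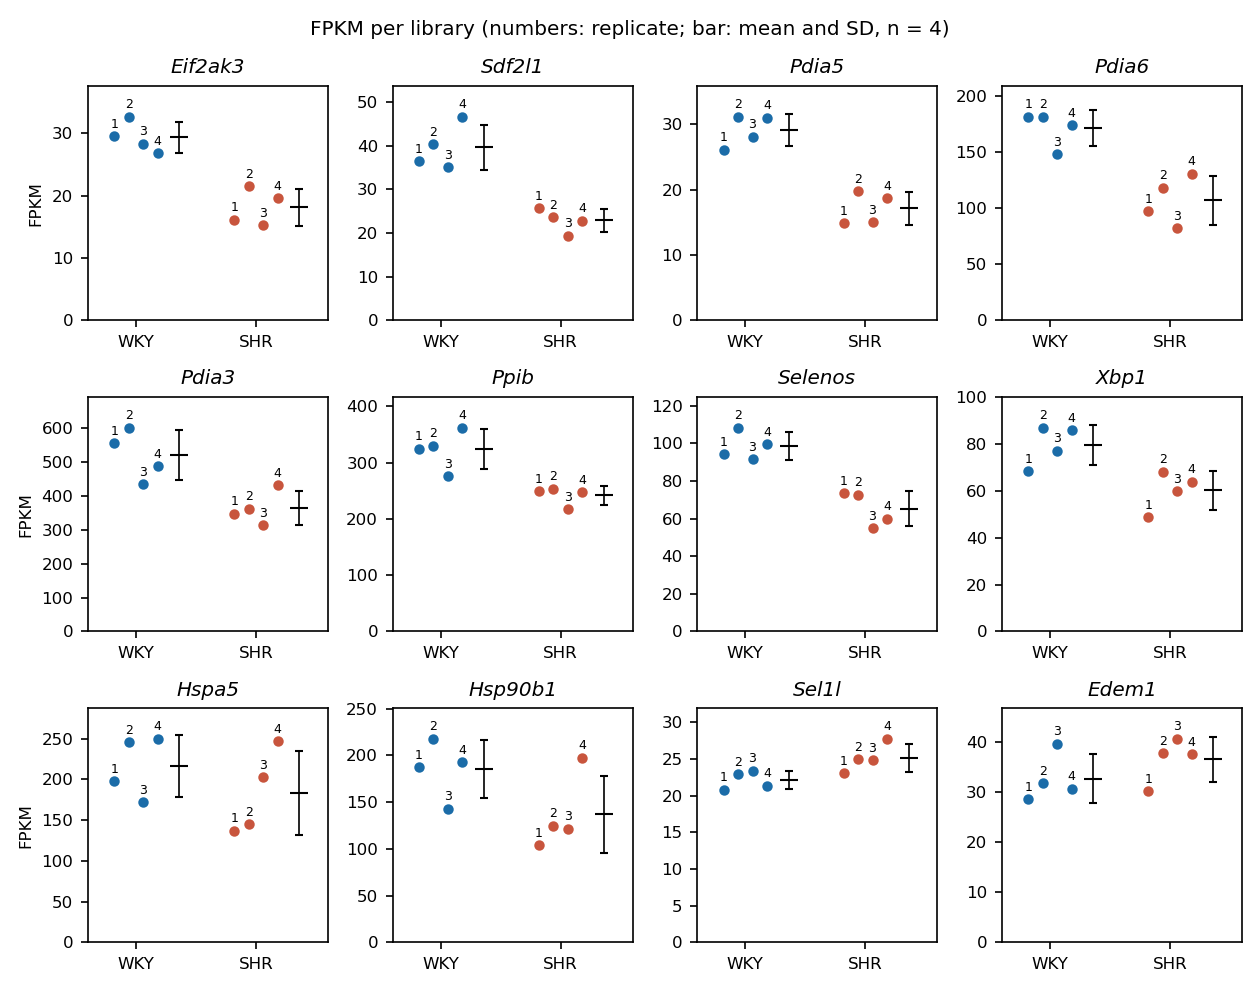
FPKM of 12 members in each library (points, numbered by replicate) with the mean and SD of each strain (n = 4). For the 7 called genes and for Xbp1 the SHR points lie below the WKY points, whereas in Hspa5 and Hsp90b1 SHR replicate 4 lies among the WKY libraries.

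Among the sensors, Eif2ak3 (ENSRNOG00000006069) encodes PERK, the kinase that slows translation by phosphorylating an initiation factor. It was at 29.5, 32.7, 28.3 and 26.9 FPKM in WKY replicates 1 to 4 and at 16.2, 21.5, 15.3 and 19.6 FPKM in SHR replicates 1 to 4. The strains did not overlap, and SHR replicates 1 and 3 were lowest. Its log2 fold change was -0.67 ± 0.13 (SE, limma adjusted p = 0.0052), a mean SHR level 0.618 times that of WKY.

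Xbp1 encodes the transcription factor made when IRE1 cuts its messenger, and a value per gene does not tell the cut form from the uncut one. Its level was 68.4, 87.1, 77.2 and 86.0 FPKM in the WKY libraries and 48.9, 68.3, 59.8 and 64.0 FPKM in the SHR libraries. The highest SHR value, in replicate 2, lay just under the lowest WKY value, in replicate 1. The log2 fold change of -0.40 ± 0.13 did not pass (limma adjusted p = 0.064), although it did with the replicate number as a block (adjusted p = 0.039). With that block 8 members were lower, where 8.28% of all genes were lower and 3.57% higher.

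Ern2 encodes the form of IRE1 found in mucus-secreting epithelium of the mouse, and Ern1 the form found in most cells. Ern2 was at 7.18, 8.36, 9.49 and 7.54 FPKM in the WKY libraries and at 4.34, 7.82, 4.52 and 5.98 FPKM in the SHR libraries, where replicate 2 lay inside the WKY range. Its log2 fold change of -0.48 ± 0.16 did not pass (adjusted p = 0.0805), and the authors' deposited table gives it a q-value of 0.0404. Of the 8 limma fits without 1 library it passed in 1, that without SHR replicate 2 (adjusted p = 0.0258). That library held the highest SHR value of Ern2, so leaving it out had to widen the difference. Ern1 ran from 7.99 to 10.7 FPKM in WKY and from 7.82 to 9.25 FPKM in SHR, so the strains overlapped widely, and its sign turned positive (0.03 on the log2 scale) without mitochondrial genes. Atf6, a membrane-bound transcription factor that is freed by cutting in the Golgi, was at a mean of 13.7 ± 0.814 FPKM in WKY against 10.6 ± 2.01 FPKM in SHR (adjusted p = 0.116), with SHR replicate 1 lowest at 7.88 FPKM.

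**Figure D2:**
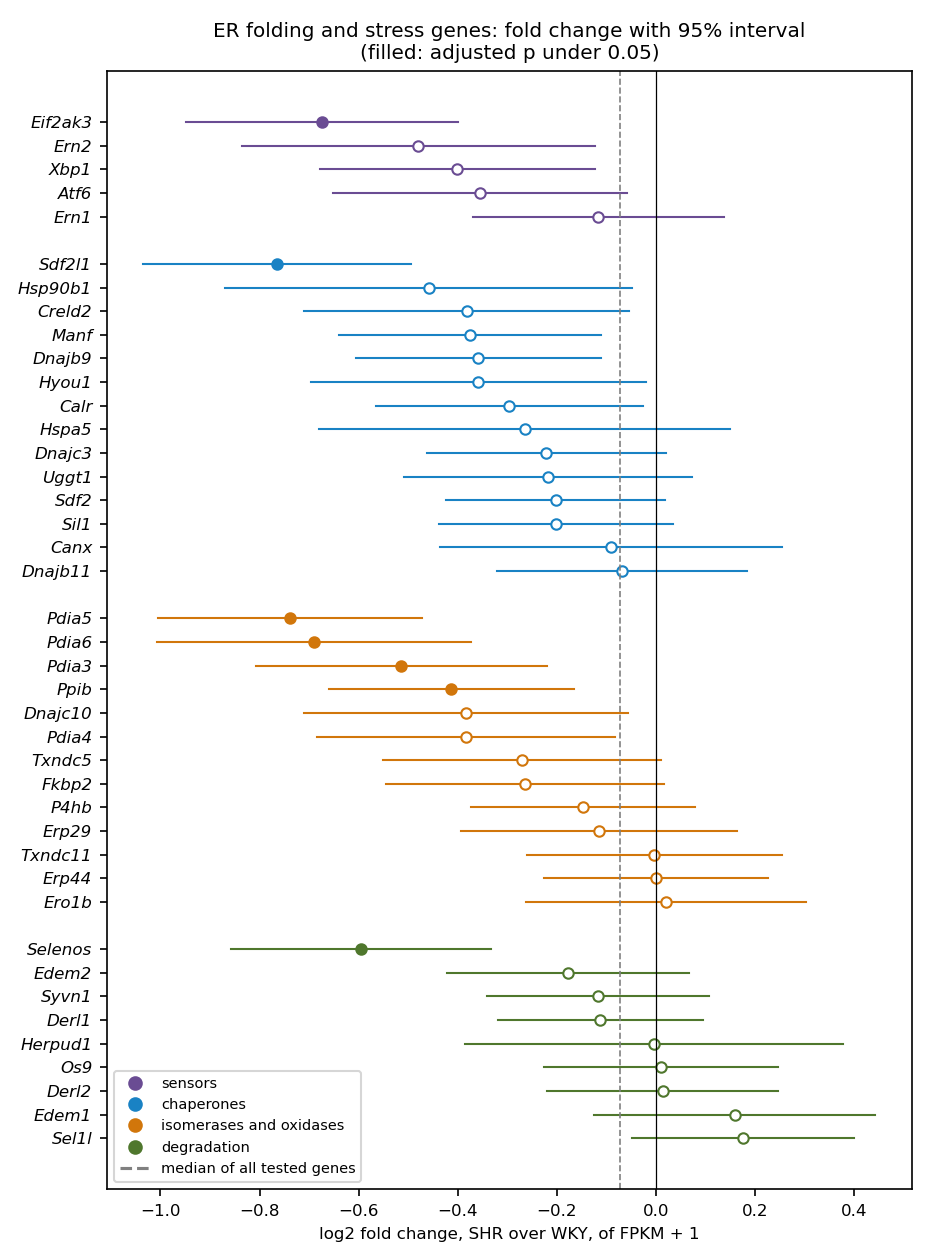
Log2 fold change of FPKM + 1, SHR over WKY, for the 41 members by role, with limma's 95% interval. Filled points passed at an adjusted p under 0.05 and the dashed line is the median of all tested genes (-0.07). All 5 sensors and 14 chaperones lie left of 0 as deposited, although Ern1, Canx and Dnajb11 turned positive when scaled without mitochondrial genes. Canx and Dnajb11 did so after quantile normalization too. The degradation genes other than Selenos lie on both sides.

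The chaperones hold some of the most abundant members. Calr, a soluble lectin chaperone, had the highest mean of all 41 at 519.4 FPKM over the 8 libraries, above 97.9% of the tested genes. Only Sdf2l1 of the 14 fell (7.14%, near the 7.48% of all tested genes). All 14 had a negative log2 fold change, as 60.9% of all tested genes had, and 12 of them also when scaled without mitochondrial genes. At an unadjusted limma p under 0.05, 7 of the 14 were lower, against 18.4% of all tested genes. Sdf2l1 (ENSRNOG00000001859) is a stress-induced partner of ER J-domain proteins that keeps clients soluble. Its values were 36.5, 40.4, 35.1 and 46.7 FPKM in the WKY libraries and 25.7, 23.6, 19.4 and 22.9 FPKM in the SHR libraries. The ranges were well apart, and the log2 fold change was -0.76 ± 0.12 (limma adjusted p = 0.00225), the largest fall of any member.

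Hspa5 encodes BiP, the central ER chaperone and a common readout of the unfolded protein response. It was at 198.3, 245.5, 171.9 and 250.1 FPKM in the WKY libraries and at 137.2, 145.5, 203.2 and 246.8 FPKM in the SHR libraries. The strains overlapped: SHR replicates 1 and 2 lay below every WKY library, and SHR replicates 3 and 4 lay inside the WKY range. The log2 fold change was -0.26 with a 95% interval from -0.68 to 0.15, so a moderate fall or a small rise could not be told from none.

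Hsp90b1 encodes GRP94, the ER member of the Hsp90 family. Its values were 187.3, 217.9, 142.9 and 192.6 FPKM in the WKY libraries and 104.1, 125.0, 121.6 and 197.4 FPKM in the SHR libraries, where 3 libraries lay below all of WKY and replicate 4 above 3 of them. It did not pass (log2 fold change -0.46 ± 0.19, adjusted p = 0.14), and passed without SHR replicate 4 (-0.65, adjusted p = 0.0163). Calr, at a mean of 570.5 ± 27.9 FPKM in WKY against 468.4 ± 74.4 FPKM in SHR, behaved alike, with adjusted p of 0.146 over all libraries and 0.0405 without that library. Each passed in only 1 of the 8 fits without 1 library. SHR replicate 4 held the highest SHR value of both genes, so leaving it out had to widen their differences.

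Dnajb9 and Dnajc3, J-domain helpers of BiP, and Sdf2, the relative of Sdf2l1 that is not known for stress induction, did not overlap between the strains and still did not pass. Dnajb9 was at 16.3 ± 1.11 and 12.5 ± 1.42 FPKM in WKY and SHR (adjusted p = 0.0631), Dnajc3 at 69.5 ± 8.12 and 59.3 ± 3.65 FPKM (adjusted p = 0.218) and Sdf2 at 110.8 ± 6.42 and 96.2 ± 6.77 FPKM (adjusted p = 0.219). Manf and Creld2, both small stress-induced proteins of the secretory pathway, were at log2 fold changes of -0.37 ± 0.12 and -0.38 ± 0.15 (adjusted p = 0.0681 and 0.125). Of the 8 limma fits without 1 library, Manf passed in 2 and Creld2 in 1. Both passed without WKY replicate 3 (adjusted p = 0.0212 and 0.033). That library held the lowest WKY value of both genes, so leaving it out had to widen their differences.

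Hyou1, which exchanges the nucleotide of BiP, was at a mean of 21.9 ± 3.13 FPKM in WKY against 17.0 ± 3.72 FPKM in SHR (adjusted p = 0.159), and Sil1, which does the same, at 15.4 ± 1.29 and 13.2 ± 0.946 FPKM (adjusted p = 0.253). Uggt1, which marks unfolded glycoproteins for another round with the lectins, was at 13.6 ± 0.922 and 11.7 ± 2.12 FPKM (adjusted p = 0.313). The smallest shifts of this role were those of Canx, the membrane-bound lectin chaperone (log2 fold change -0.09 ± 0.16), and Dnajb11, a further J-domain helper (-0.07 ± 0.12). The sign of both turned positive when libraries were scaled without mitochondrial genes (0.07 and 0.09), and barely so after quantile normalization (0.012 and 0.0005).

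**Figure D3:**
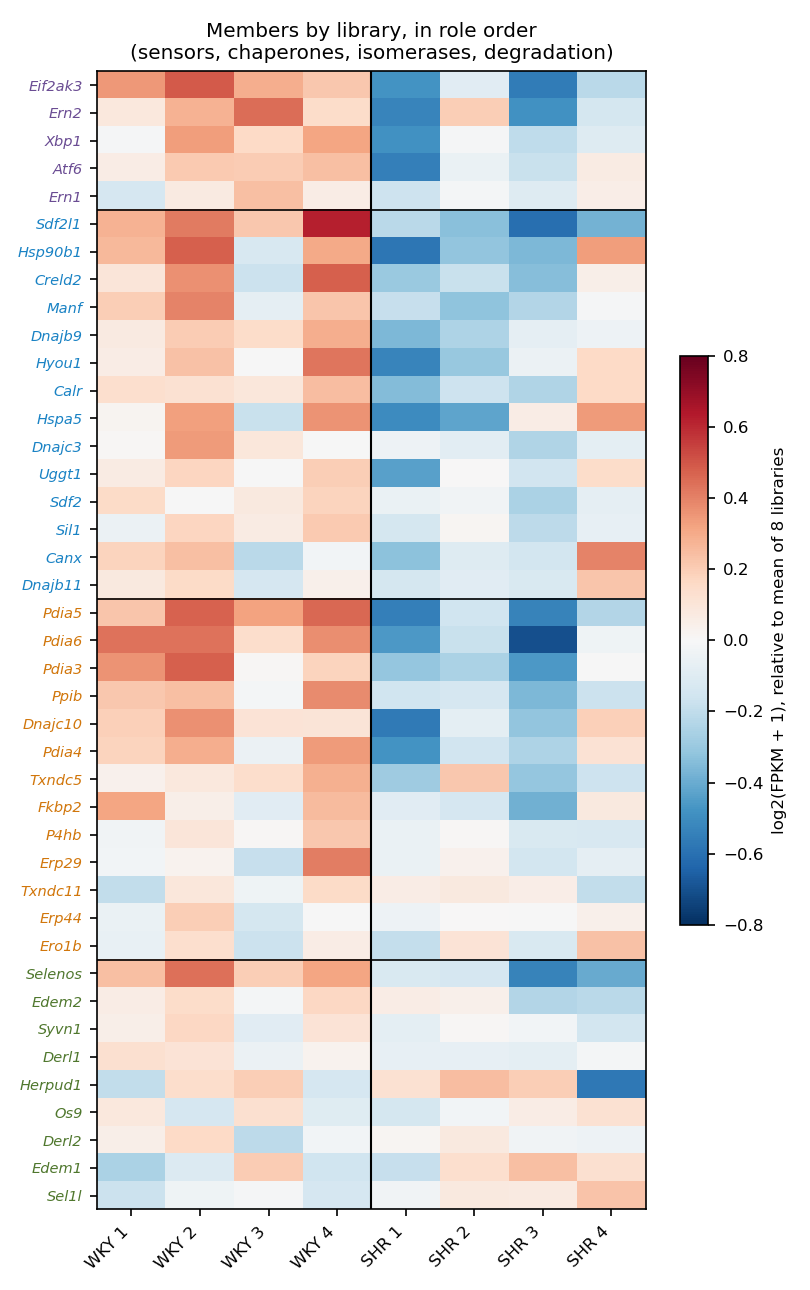
Level of each member in each library, as log2(FPKM + 1) relative to the gene's mean over 8 libraries, with members in role order and a vertical line between the strains. In SHR replicate 4 the chaperones Hspa5, Hsp90b1 and Canx are above their means and Herpud1 is at its lowest.

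The members varied between libraries of a strain. SHR replicate 4 held the highest SHR value for 22 of 41 members, 10 of them chaperones, and SHR replicate 1 the lowest for 20. In WKY, replicate 3 held the lowest value for 23 members, 10 of them chaperones, and replicate 4 the highest for 17. The median of all tested genes was also lowest within its strain in WKY replicate 3 (-0.03 on the log2 scale, relative to each gene's mean) and in SHR replicate 1 (-0.12), the libraries with the highest mitochondrial shares (32.1% and 33.2%), whose part in these counts was not tested. Hsp90b1 spanned 1.90-fold and Hspa5 1.80-fold from the lowest to the highest SHR library. The median within-strain SD on the log2 scale was 0.15 in WKY and 0.22 in SHR for sensors, 0.17 in both for chaperones, 0.14 and 0.19 for isomerases and oxidases, and 0.11 in both for degradation genes.

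Without SHR replicate 4 the number of lower members was 13 of 41, where 7.52% of all tested genes were lower and 3.23% higher. The 6 added were Hsp90b1, Dnajb9, Manf, Calr, Pdia4 and Dnajc10. With WKY replicate 3 left out too the number was 17, where 14.6% of all genes were lower and 5% higher, and 8 of the 17 were chaperones, Hspa5 among them (log2 fold change -0.53, adjusted p = 0.0411). WKY replicate 3 held most of the lowest WKY values and SHR replicate 4 most of the highest SHR values, and the pair was chosen with earlier results known, so leaving them out had to widen the differences of these members, and the added calls support nothing. The summed T and natural killer cell markers were highest in WKY replicate 3 (136.7 FPKM) and lowest in SHR replicate 4 (12.4 FPKM). In SHR replicate 1, which held the lowest SHR value for 20 of the 41 members, they were nearly as low (12.8 FPKM). Their part in the result was not tested.

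The 13 isomerases and oxidases held 4 of the 7 calls (30.8% lower, against 7.48% of all tested genes). Pdia5 (ENSRNOG00000032327), a protein disulfide isomerase, was at 26.1, 31.2, 28.1 and 31.0 FPKM in the WKY libraries and at 14.9, 19.8, 15.1 and 18.7 FPKM in the SHR libraries. The lowest WKY library lay well above the highest SHR library, and the log2 fold change was -0.74 ± 0.12 (limma adjusted p = 0.00257). Pdia6 (ENSRNOG00000050197), an isomerase that binds BiP, was at 181.9, 181.7, 148.1 and 173.9 FPKM in the WKY libraries and at 97.3, 118.3, 82.1 and 130.9 FPKM in the SHR libraries. Again the strains did not overlap, with a log2 fold change of -0.69 ± 0.15 (adjusted p = 0.01).

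Pdia3 (ENSRNOG00000015018) encodes ERp57, which acts on glycoproteins held by Calr and Canx. Its values of 556.0, 602.7, 436.3 and 489.6 FPKM in the WKY libraries and 348.4, 363.0, 314.2 and 432.3 FPKM in the SHR libraries came close at WKY replicate 3 and SHR replicate 4. The log2 fold change was -0.51 ± 0.14 (adjusted p = 0.0299). Ppib (ENSRNOG00000016781) encodes cyclophilin B, a prolyl isomerase, and was at 324.4, 330.1, 276.1 and 362.0 FPKM in the WKY libraries and at 249.3, 253.3, 217.0 and 247.7 FPKM in the SHR libraries. It fell by 0.41 ± 0.11 on the log2 scale (adjusted p = 0.0367), and SHR replicate 3 stood below the other 3 SHR libraries.

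Other isomerases did not pass. Pdia4, a large relative of Pdia3, was at a mean of 52.1 ± 6.10 FPKM in WKY against 39.9 ± 6.99 FPKM in SHR (adjusted p = 0.0955), and Dnajc10, a disulfide reductase of ER-associated degradation, at 47.6 ± 4.25 and 36.9 ± 8.44 FPKM (adjusted p = 0.123). Txndc5, a disulfide isomerase with thioredoxin domains, and the prolyl isomerase Fkbp2 were at log2 fold changes of -0.27 ± 0.13 and -0.26 ± 0.13. P4hb, the founding protein disulfide isomerase and second most abundant member, was at a mean of 477.9 ± 36.5 FPKM in WKY against 430.8 ± 19.5 FPKM in SHR, and its log2 fold change of -0.15 had an interval from -0.37 to 0.08. Its sign and those of Erp29 and Txndc11 turned positive without mitochondrial genes (0.02, 0.05 and 0.15). That of Txndc11 was also positive after quantile normalization (0.039) and centring (0.044).

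For Erp44, Txndc11 and Ero1b the log2 fold change was within 0.02 of zero. Erp44, which returns unfinished proteins from the early Golgi, was at 122.3 ± 12.5 and 121.9 ± 2.83 FPKM, with an interval of the log2 fold change from -0.23 to 0.23. Erp29, which lacks the redox-active cysteine pair, was at 87.4 ± 16.1 and 79.8 ± 4.17 FPKM (log2 fold change -0.11, interval -0.39 to 0.16), and WKY replicate 4 alone reached 110.4 FPKM. Txndc11, a further thioredoxin-domain protein, had means of 14.9 FPKM in both strains. The oxidase gene Ero1b was the lowest member, from 1.05 to 1.54 FPKM in WKY and from 1.03 to 1.72 FPKM in SHR, while its relative Ero1a, not among the 41, was at 19.3 ± 0.632 and 20.9 ± 2.96 FPKM (adjusted p = 0.641).

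Of the 9 degradation genes 1 fell (11.1%, near the 7.48% of all tested genes). Selenos (ENSRNOG00000012576), a selenoprotein that links the derlins to the ATPase that pulls proteins out of the ER, was at 94.2, 108.4, 91.7 and 99.4 FPKM in the WKY libraries and at 73.3, 72.6, 54.8 and 60.0 FPKM in the SHR libraries. The strains were far apart, and the log2 fold change was -0.59 ± 0.12 (limma adjusted p = 0.00836). The others lay near or on both sides of zero. Sel1l, the adaptor of the ubiquitin ligase, was at 20.8, 23.0, 23.4 and 21.4 FPKM in the WKY libraries and at 23.1, 25.0, 24.8 and 27.8 FPKM in the SHR libraries, with the highest log2 fold change of any member, 0.18 ± 0.10 (adjusted p = 0.293). Its strains overlapped, and SHR replicate 4 was highest. Syvn1, the ligase itself, was at 20.9 ± 1.63 and 19.2 ± 0.962 FPKM.

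Edem1 and Edem2, which trim mannose from glycoproteins on the way to degradation, had log2 fold changes of 0.16 ± 0.13 and -0.18 ± 0.11, and neither passed (adjusted p = 0.456 and 0.328). The derlin genes Derl1 and Derl2, whose proteins form part of the exit channel, had fold changes of -0.11 ± 0.10 and 0.01 ± 0.11 on the log2 scale. Syvn1, Derl1 and Herpud1 turned positive without mitochondrial genes (0.04, 0.05 and 0.16). Herpud1 was also positive after quantile normalization (0.045) and centring (0.044). Os9, a lectin that recognises trimmed sugars, was at 67.8 ± 6.12 and 68.2 ± 5.38 FPKM. Herpud1, a stress-induced organiser of the ligase complex, was at a mean of 47.6 ± 6.59 FPKM in WKY against 48.3 ± 11.4 FPKM in SHR, where replicates 1 to 3 lay between 51.5 and 56.1 FPKM and replicate 4 at 31.5 FPKM. The replicate with the highest SHR levels of Hspa5 and Hsp90b1 thus held the lowest Herpud1.

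Ratios of related members within a library do not change with its scaling, apart from the pseudocount. Sdf2l1 stood at 0.318, 0.393, 0.323 and 0.399 times the FPKM of Sdf2 in WKY and at 0.259, 0.233, 0.225 and 0.233 times in SHR, without overlap. The difference of the log2 ratio, SHR minus WKY, was -0.56 ± 0.10 (SE), with an exact two-sided permutation p = 0.0286, the smallest that 4 against 4 libraries can give, and 0.143 adjusted over the 5 pairs. For Ern2 over Ern1 the WKY ratios were 0.810 to 0.899 and the SHR ratios 0.555, 0.891, 0.551 and 0.646, with replicate 2 at the WKY level. That difference was -0.36 ± 0.14 on the log2 scale (exact permutation p = 0.0857, adjusted 0.143).

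The same difference was 0.34 ± 0.21 for Edem1 over Edem2, -0.13 ± 0.06 for Derl1 over Derl2 and -0.20 ± 0.12 for Calr over Canx. Exact permutation p was 0.171, 0.0571 and 0.229, and none of the 5 pairs passed after adjustment. A pair that alone reached the smallest possible p could not pass after that adjustment. The outcome therefore does not show that the ratios are equal.

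**Figure D4:**
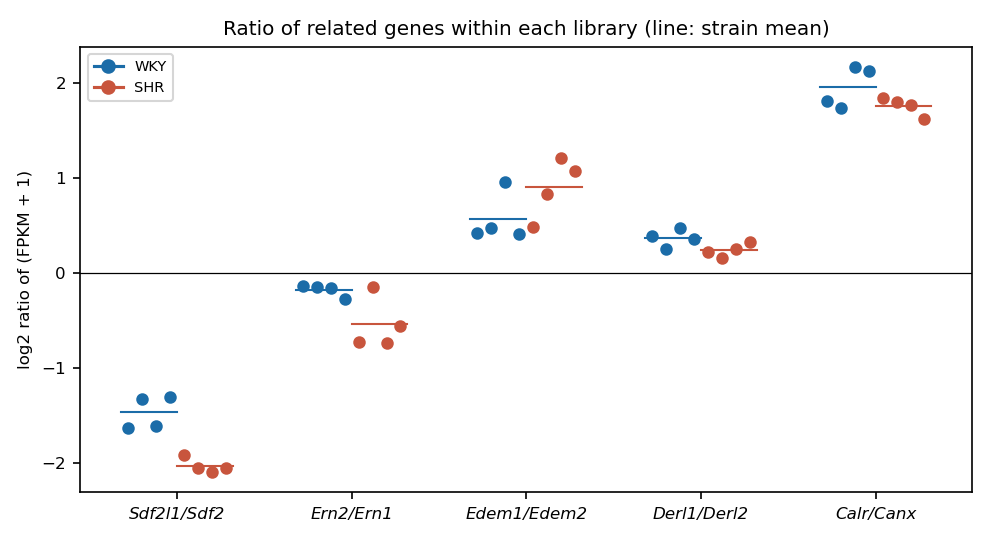
Log2 ratio of FPKM + 1 between related members in each library (points) with strain means (lines, n = 4 each). The WKY and SHR points are apart for Sdf2l1/Sdf2 and overlap for the other 4 pairs.

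Of 98 further symbols of the same pathways, 82 were tested, and 11 were lower (13.4%) and 1 higher (1.22%) in SHR. Over all tested genes the shares were 7.48% and 3.4%. The median log2 fold change of the 82 was -0.11, near the -0.07 of all tested genes. Among folding and redox genes 6 of 29 fell (20.7%) and 0 rose. Rcn1, which encodes a calcium-binding ER protein, was at 6.29, 8.09, 6.11 and 6.24 FPKM in the WKY libraries and at 0.32, 1.24, 1.01 and 1.21 FPKM in the SHR libraries, a log2 fold change of -2.01 ± 0.17 (limma adjusted p = 9.37e-06). Every SHR library lay far below WKY, and the fall was deeper than that of any member. Qsox1, a sulfhydryl oxidase of the secretory pathway, fell by 0.82 ± 0.13 on the log2 scale (adjusted p = 0.00243), and Agr3, a small relative of the disulfide isomerases, from 66.2 ± 7.36 to 44.8 ± 4.53 FPKM (adjusted p = 0.01). Prdx4, the ER peroxiredoxin, fell from 40.3 ± 7.21 to 26.5 ± 3.40 FPKM (adjusted p = 0.0233), but did not pass when WKY 2, WKY 4 or SHR 3 was left out.

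Of 26 further degradation genes 2 fell and 0 rose, and the 7.69% that fell is near the 7.48% of all tested genes. Herpud2, a relative of Herpud1, was at 16.3, 18.0, 17.4 and 16.8 FPKM in the WKY libraries and at 11.3, 11.8, 8.39 and 9.60 FPKM in the SHR libraries (log2 fold change -0.70 ± 0.12, limma adjusted p = 0.00344). Unlike Herpud1 its strains were well apart. The lectin gene Erlec1 fell from 65.2 ± 7.48 to 48.2 ± 4.70 FPKM (adjusted p = 0.036), and with 1 library left out it passed only where that was WKY 3, WKY 4 or SHR 4.

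Among 13 further signalling genes 1 rose and 1 fell (7.69% each), where 3.4% of all tested genes were higher and 7.48% lower. Atf6b, the close relative of Atf6, was at 30.9, 28.5, 28.5 and 33.1 FPKM in the WKY libraries and at 48.3, 44.2, 45.4 and 36.8 FPKM in the SHR libraries. Its strains did not overlap and it rose by 0.51 ± 0.11 on the log2 scale (limma adjusted p = 0.0125), while Atf6 itself did not pass. Creb3l4, another membrane-bound transcription factor, fell from 33.1 ± 4.26 to 23.7 ± 3.27 FPKM (adjusted p = 0.0353), and with 1 library left out it passed only without WKY replicate 3 or SHR replicate 2.

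Downstream of PERK, 2 of 14 tested genes of the ATF4 arm fell (14.3%, against 7.48% of all tested genes) and 0 rose. Asns, asparagine synthetase, was at 7.92, 10.6, 5.93 and 6.75 FPKM in the WKY libraries and at 4.15, 4.29, 3.35 and 3.98 FPKM in the SHR libraries, without overlap (adjusted p = 0.00628). Nupr1, a stress-induced nuclear protein, fell from 264.6 ± 60.9 to 158.5 ± 41.4 FPKM (adjusted p = 0.0301), although SHR replicate 2 lay above WKY replicate 3, and with 1 library left out it passed only without either of these. Scaling without mitochondrial genes ended the calls of Prdx4, Erlec1, Creb3l4 and Nupr1. Atf4 was at 183.0 ± 11.5 and 157.2 ± 13.4 FPKM (adjusted p = 0.197), and Ddit3, the gene of the death-linked factor CHOP, at 19.2 ± 2.49 and 17.9 ± 3.61 FPKM (adjusted p = 0.698).

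Of 18 tested goblet cell markers 8 were lower in SHR, 0 were higher and 10 did not pass. No member was among them, and Muc2 was not analysed here. Over all tested genes 7.48% were lower and 3.4% higher, against 44.4% lower among these markers. The median log2 fold change was -0.61 and 16 were negative. The largest opposite value was that of Reg4, singled out after its values were seen, at 24.0, 96.3, 30.3 and 15.6 FPKM in the WKY libraries and 131.5, 310.8, 35.8 and 296.6 FPKM in the SHR libraries (log2 fold change 2.12 ± 0.88, limma adjusted p = 0.181). The most abundant were Guca2a, at a mean of 3283 ± 890.0 FPKM in WKY against 3693 ± 908 FPKM in SHR (adjusted p = 0.66), Zg16, which fell by 0.63 ± 0.16 on the log2 scale, and Agr2, itself a disulfide isomerase, which fell by 0.91 ± 0.16. The summed level of the 18 markers was 6662 to 9454 FPKM in WKY and 5314 to 8097 FPKM in SHR, and none was listed at 0. The largest part of that sum was Guca2a, at 2373 to 4302 FPKM in WKY and 2419 to 4567 FPKM in SHR. Of 15 absorptive colonocyte markers, led by Car1, 2 were higher and 0 lower (13.3% higher, against 3.4% of all tested genes). Their median was 0.32, and 2 of the 15 were negative. The largest change on that list was opposite, that of Aqp8, also singled out after its values were seen. It was at 8.68 to 95.4 FPKM in WKY and 0.31 to 5.88 FPKM in SHR, without overlap (log2 fold change -3.05 ± 0.83, limma adjusted p = 0.0681). On the deposited values the medians per library of both lists did not overlap between the strains, and other scalings were not applied to them.

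By library, the goblet median was lowest in SHR replicate 3 (-0.53) and highest in WKY replicate 2 (0.46), relative to each gene's mean. The chaperone median was highest in SHR within SHR replicate 4 (0.10), where the goblet median was -0.32. The sensor median was lowest in SHR replicate 1 (-0.49) and highest there in replicate 2 (-0.02), where the goblet median of SHR was also highest (-0.03). The part of goblet cell number in the lower folding genes was not tested.

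**Figure D5:**
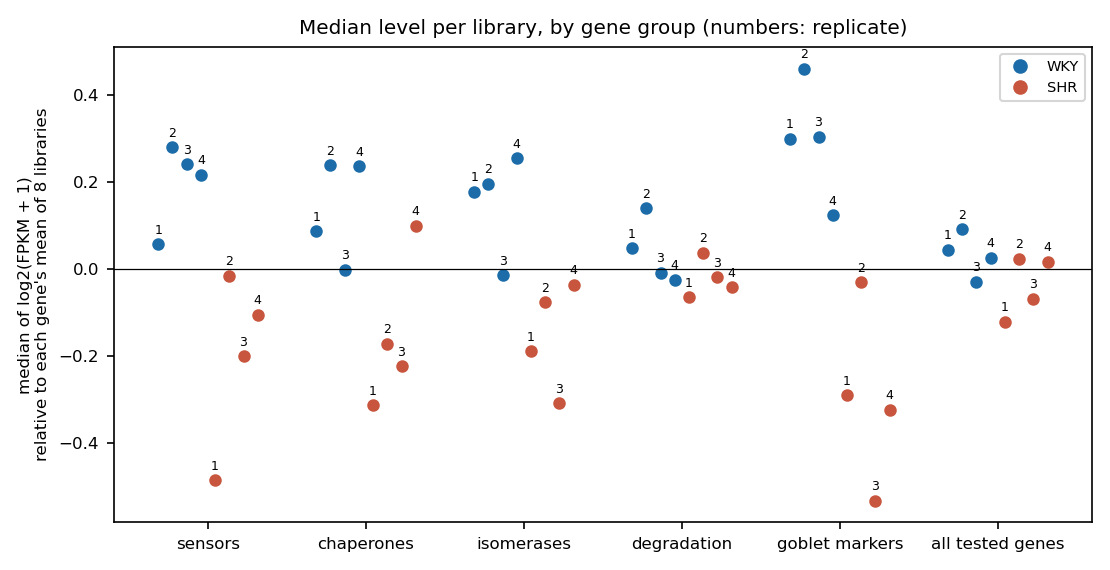
Median over the genes of each group of log2(FPKM + 1) relative to the gene's mean of 8 libraries, per library (numbered by replicate). On the deposited values sensors, isomerases and goblet markers do not overlap between WKY and SHR, whereas chaperones and degradation genes do. The gap is narrow for isomerases (WKY replicate 3 at -0.013, SHR replicate 4 at -0.036) and sensors (WKY replicate 1 at 0.057, SHR replicate 2 at -0.016). Scaling without mitochondrial genes was not applied to these medians.

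The members together took 0.381% to 0.467% of all FPKM in WKY and 0.324% to 0.435% in SHR. Of the total without mitochondrial genes they took 0.548% to 0.597% in WKY and 0.485% to 0.582% in SHR. On either base the SHR share was lowest in replicate 1 and highest in replicate 4, and the strains overlapped through replicate 4.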

How the data were processed

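RNA of 4 WKY and 4 SHR libraries, grouped by their titles, was sequenced after poly(A) selection as directional paired-end libraries, per the labels' protocols. The submitters' processing notes list STAR, Trimmomatic and FastQC with no version. No source used here gives the build, annotation, counting tool, use of strand or test. The deposited values were read as FPKM, which no header names. Multiplied by a length per gene (the authors' mean CPM over mean FPKM) they summed to totals whose largest was 1.04 times the smallest, against 1.21 for plain sums. The deposited table also holds the authors' mean CPM, log2 fold change, p-value and q-value, per the file headers. The depth of each library is unknown, so no counting error is given.

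The 11069 of 11762 genes that reached 1 FPKM in 4 or more libraries were tested on log2(FPKM + 1), which understates changes of low genes, with limma 3.58.1 in R 4.3.3 (strain as the only term, empirical Bayes, trend and robust both on, two-sided, Benjamini-Hochberg over all tested genes, threshold 0.05). Ratios of related genes were compared by an exact two-sided permutation test. The fit was tested on simulated data. Figures were drawn with matplotlib 3.10.9. Members, lists and tests were chosen with earlier results of these data known, so no list has a test. All members with a row are named, and up to 4 called genes of each list of other pathway genes, by smallest p. Of the marker lists those of highest mean FPKM are named. The ratio of Derl3 to Derl2 was planned and could not be computed, since Derl3 has no row. Alternatives were other pseudocounts, no filter, 3 other scalings, a replicate block, fits without 1 or 2 libraries, and the authors' q-values.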

Additional observations from a re-analysis of the deposited data

Results flagged for a closer look

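Values of 4 libraries were examined for one that lay far from the other 3, with a gap to its neighbour, relative to the whole range, above Dixon's 95% critical value, in 92 groups (41 members and 5 ratios in each strain). Chance flags about 1 in 20 groups, and 5 were found. In SHR replicate 4, Dnajb11 was at 78.84 FPKM against 61.2 to 63.3 FPKM in the other SHR libraries, and Txndc11 at 12.85 FPKM against 15.4 to 15.8 FPKM. Ppib was at 217 FPKM in SHR replicate 3 and at 247.7 to 253.3 FPKM in the others. The log2 ratio of Ern2 to Ern1 was -0.27 in WKY replicate 4 and -0.16 to -0.14 in the others, and that of Edem1 to Edem2 was 0.95 in WKY replicate 3 and 0.41 to 0.47 in the others.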

How the results depend on the processing

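The count of 7 lower members stayed within 1.5 times under 15 of 17 alternatives, not always with the same genes, since Pdia3 and Ppib passed in 9 and 8 of the 17. The exceptions were the fits without SHR replicate 4 (13 lower) and without WKY replicate 3 and SHR replicate 4 together (17). No member was higher in any of the 17. Leaving out 1 library gave 5 to 13 lower members, 1 to 2 sensors, 1 to 5 chaperones and 2 to 6 isomerases. Leaving out both libraries gave 8 chaperones and 7 isomerases. Quantile normalization and scaling without mitochondrial genes gave 2 isomerases each, and moved the members' median from -0.26 to -0.15 and -0.10. Over all genes, 828 were lower and 376 higher. Scaling without mitochondrial genes gave 462 and 718, quantile normalization 642 higher, the authors' q-values 675 higher, and leaving out both libraries 1617 lower. Leaving out 1 library gave 499 to 1209 lower and 215 to 583 higher. The lower count fell by over 1.5 times without WKY replicate 4 (506) or SHR replicate 3 (499). The higher count moved that far without WKY replicate 1 (249), WKY replicate 4 (221), SHR replicate 1 (583), SHR replicate 2 (229) or SHR replicate 3 (215). The cause was not tested. With the replicate block 8 members were lower (Xbp1 added, so 2 sensors), and the authors' q-values also gave 2 sensors, with Ern2 added. Deviations of same-numbered libraries had correlations of -0.11, -0.04, 0.46 and -0.29 for numbers 1 to 4. Those of differently numbered libraries ran from -0.35 (WKY 2 with SHR 3) to 0.28 (WKY 1 with SHR 4). Only number 3 lay above that range, so no pattern was shared across the numbers, and they are not taken as pairs. Of the 51 named genes followed through every alternative, none that passed turned its direction. Ratios with 1 library fewer could not pass, since their smallest exact permutation p is 0.0571. With all libraries, a pair alone at the smallest possible p could not pass after adjustment either. Reads per library are unknown, so counting error at low levels such as that of Ero1b cannot be given.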
